A study of Mus musculus with 7 samples.

Results

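The genes described here are the protease inhibitors of the serpin, Spink and Wfdc families in the inflamed mouse prostate. They were chosen by symbol alone: every gene in the files whose name begins with Serpin, Spink or Wfdc. The rule found 51 of 16019 genes, of which 30 were serpins, 8 were Spink genes and 13 were Wfdc genes. Each had a value in all 7 libraries. The tissue was prostate from mice with experimental autoimmune prostatitis, in which immunisation sets off inflammation of the gland. In the LIT-927 group (4 libraries, replicates 1 to 4) the mice were given LIT-927 (LIT927 in the sample titles), which neutralises the chemokine CXCL12 by binding to it; the dose was 25 mg/kg a day, injected into the peritoneum for 14 days. In the vehicle group (3 libraries, replicates 1, 3 and 4) they received the solvent methyl-β-cyclodextrin over the same 14 days. All animals of both groups had prostatitis, and no library of healthy prostate was analysed here. Strain, age and the number of animals behind a library were not given in the sources used here, so the spread between libraries may be partly technical.

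Serpins are single-use inhibitors: the protease cuts an exposed loop of the serpin, and the serpin then folds around it and traps it. Spink proteins carry Kazal domains, and Wfdc proteins carry whey acidic protein domains, both of which sit tightly in a protease's active site without being used up. In the male tract the families limit proteolysis in the seminal plasma, on sperm and in inflamed epithelium. The heading of secreted inhibitors does not cover every member, since Serpinb proteins mostly act inside cells, Serpinh1 is a collagen chaperone of the endoplasmic reticulum, and Serpinf1 does not inhibit proteases.

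Levels are in FPKM (fragments per kilobase of gene, scaled to the library's fragment total), so they can be compared between genes. Between 32023785 and 35240765 fragments per library were recovered from them. Markers of neighbouring tissues differed between libraries. Upk1a, a uroplakin of the bladder and urethral lining, was at 6.64, 10.1, 253 and 9.56 FPKM in LIT-927 replicates 1 to 4, against 9.78, 172 and 2.64 FPKM in vehicle replicates 1, 3 and 4. Akr1b7, an aldo-keto reductase abundant in the vas deferens, stood at 17099, 8867, 15.9 and 5998 FPKM in LIT-927 replicates 1 to 4, against 8408, 84.5 and 1597 FPKM in vehicle replicates 1, 3 and 4. LIT-927 replicate 3 and vehicle replicate 3 thus stood apart from the other 5 libraries in both genes. Of the 14 prostate luminal markers, all 14 were detected, and their summed level was 6121 to 116801 FPKM in LIT-927 libraries and 3088 to 60687 FPKM in vehicle libraries. Seminal vesicle markers summed to 142409 to 301496 FPKM in LIT-927 libraries and 51022 to 563785 FPKM in vehicle libraries, so transcripts of that gland were present in every library. They made up 563785 of 816215 FPKM in vehicle replicate 4 and 51022 of 445417 FPKM in vehicle replicate 1. Such uneven shares make the FPKM of other genes less comparable between libraries. Scaling factors from the median of gene ratios ran from 0.665 in vehicle replicate 4 to 1.31 in vehicle replicate 1.

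No inhibitor gene passed the test for a difference between LIT-927 and vehicle. The test was limma on log2(FPKM + 1) with Benjamini-Hochberg adjustment over 16019 genes, and it called 0 of 51 inhibitor genes and 0.0% of all genes at an adjusted p under 0.05. Every one of the 51 had an adjusted p of 0.998. At an unadjusted p under 0.05, 6 of the 51 were lower with LIT-927 (11.8%), against 2.96% of all genes, and 0 were higher, against 0.718% of all genes. These 6 were Serpina3c, Serpina3g, Serpinb8, Serpina3f, Wfdc6a and Serpina5. With voom on recovered fragments, also 0 genes were called, and 476 had an unadjusted p under 0.05. A lower mean with LIT-927 was found for 32 of the 51, or 62.7%, and for 44.5% of all genes. The median difference, LIT-927 minus vehicle in log2(FPKM + 1), was -0.16 over the inhibitor genes and 0.02 over all genes. By family it was -0.32 for serpins (21 of 30 lower), 0.03 for Spink genes (4 of 8 lower) and -0.09 for Wfdc genes (7 of 13 lower).

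**Figure D1:**
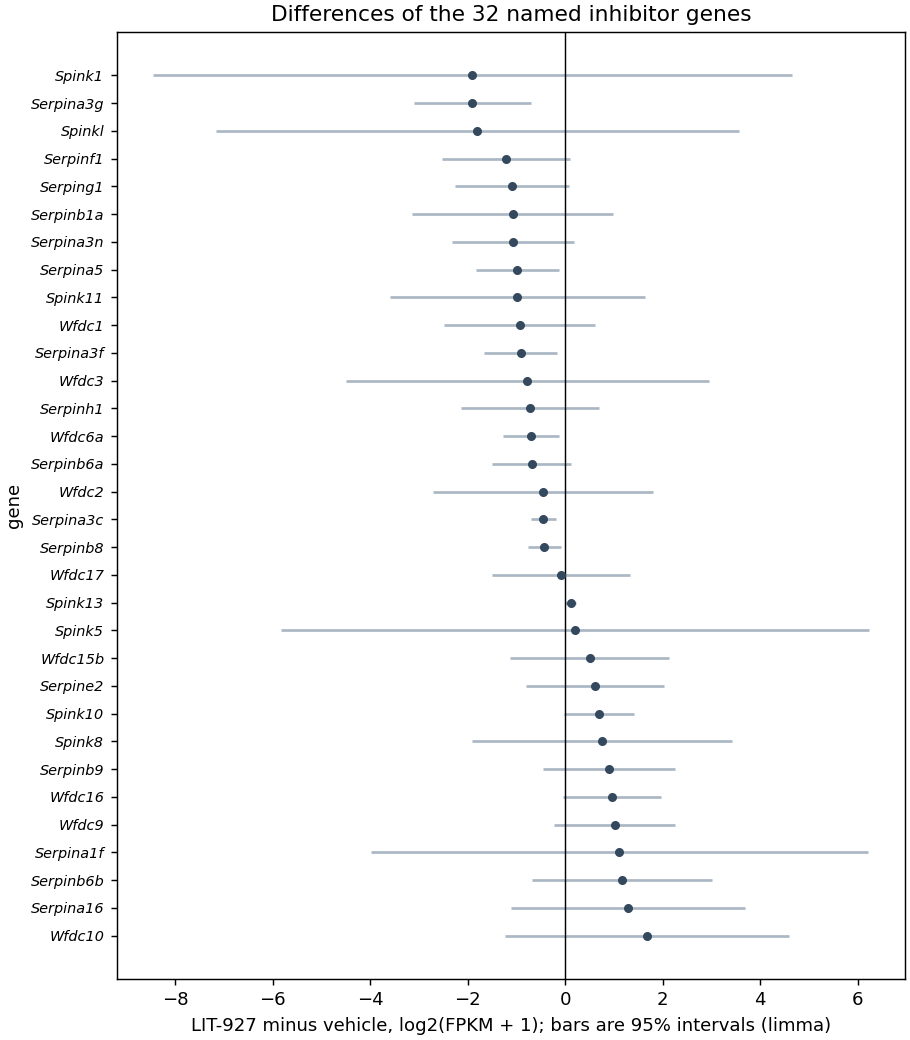
Differences between LIT-927 and vehicle libraries for the 32 named inhibitor genes, in log2(FPKM + 1); points are limma estimates and bars their 95% intervals, not adjusted for multiple testing. Serpina3g lies at -1.90 with an interval below 0, whereas Spink1, at -1.90, has an interval of -8.45 to 4.65.

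The inhibitor genes varied widely between libraries of both groups. The range of log2(FPKM + 1) from the lowest to the highest library had a median of 1.84 over the 51 genes and 0.89 over all genes. It exceeded 3 in 16 of the 51 (31.4%) and in 3.97% of all genes, a description that was given no test. Spink genes varied most, with a median range of 4.55, against 2.28 for Wfdc genes and 1.46 for serpins. Levels spanned from under 1 FPKM in every library, for 17 of the 51 genes, to over 100 FPKM in some library for 9 of them. Together the 51 genes took 0.552%, 0.635%, 7.87% and 0.387% of all FPKM in LIT-927 replicates 1 to 4, against 0.346%, 3.19% and 2.45% in vehicle replicates 1, 3 and 4. Spink1 and Spinkl made up most of the high shares.

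**Figure D2:**
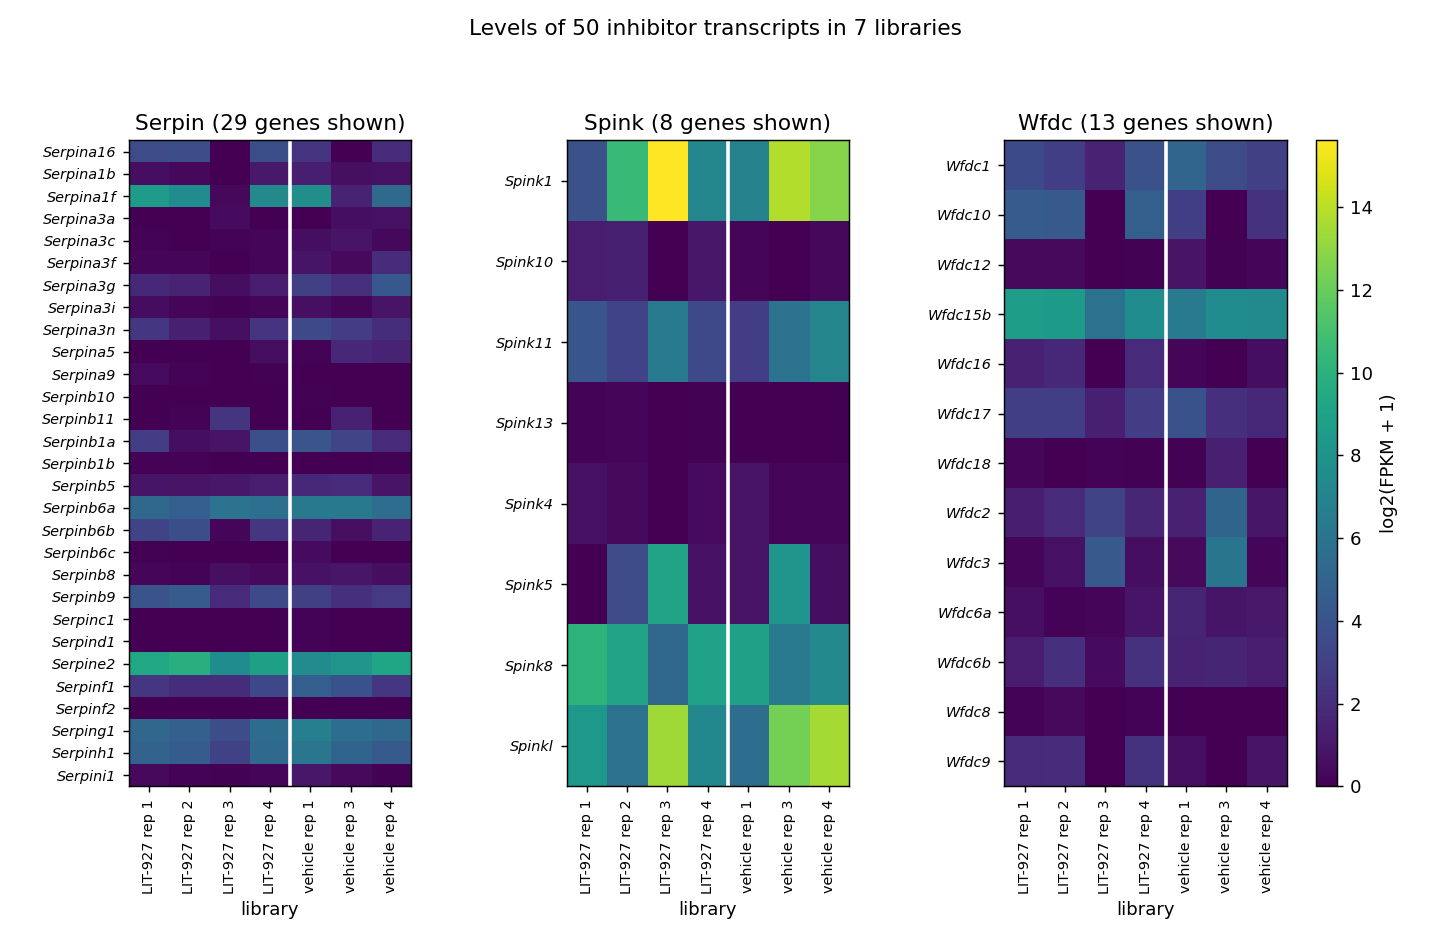
Levels of 50 of the 51 inhibitor genes in log2(FPKM + 1), with 1 row per gene, 1 column per library and LIT-927 libraries left of the white line. Spink1 and Spinkl are brightest in LIT-927 replicate 3 and vehicle replicates 3 and 4, while Serpina1f, Serpina16 and Wfdc10 are dark in LIT-927 replicate 3 and vehicle replicate 3.

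Complete separation of the treatment groups was found among the Serpina3 genes, which in mice form a cluster of close copies related to human antichymotrypsin. Every LIT-927 library was below every vehicle library for 3 of the 51 genes, Serpina3g, Serpina3f and Serpina3c. The share of all genes with that pattern was 2.12%. No inhibitor gene had every LIT-927 library above every vehicle library, a pattern seen in 1.08% of all genes. Serpina3g (chromosome 12, 104236245 to 104241939, plus strand, mm10), an intracellular inhibitor of cysteine cathepsins that activated T cells and interferon-treated macrophages express, was at 2.31, 1.96, 0.473 and 1.25 FPKM in LIT-927 replicates 1 to 4, against 6.92, 3.58 and 18.4 FPKM in vehicle replicates 1, 3 and 4. The highest LIT-927 library was thus below the lowest vehicle library, and vehicle replicate 4 stood above the other vehicle libraries. The means were 1.5 ± 0.813 FPKM with LIT-927 (SD, n = 4) and 9.65 ± 7.80 FPKM with vehicle (SD, n = 3), a difference of -1.90 in log2(FPKM + 1) (SE 0.52; 95% interval -3.11 to -0.69; limma adjusted p = 0.998). The exact permutation p, two-sided, was 0.0286, the smallest that 35 divisions of 7 libraries can give. Complete separation of the groups puts this p at or near that minimum, so it adds nothing to the separation. Without any one library the difference stayed between -2.38 and -1.34, and it was -2.15 without LIT-927 replicate 3 and vehicle replicate 3.

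Serpina3f (chromosome 12, 104214544 to 104221129, plus strand) was at 0.160, 0.200, 0.0136 and 0.150 FPKM in LIT-927 replicates 1 to 4, against 0.869, 0.322 and 2.87 FPKM in vehicle replicates 1, 3 and 4. It followed the same order of vehicle libraries as Serpina3g, with replicate 4 highest, and its difference was -0.91 (SE 0.32; limma adjusted p = 0.998). Its values stand for 1 to 15 fragments in a LIT-927 library and 25 to 232 in a vehicle library. Serpina3c (chromosome 12, 104146382 to 104153870, minus strand) was at 0.103, 0.0342, 0.104 and 0.144 FPKM in LIT-927 replicates 1 to 4, against 0.481, 0.776 and 0.253 FPKM in vehicle replicates 1, 3 and 4. Its vehicle libraries came in another order, with replicate 3 highest, and its values stand for 2 to 9 fragments in a LIT-927 library and 16 to 47 in a vehicle library. The difference of -0.44 (SE 0.11; limma adjusted p = 0.998) had the smallest unadjusted p of all 51 genes, 0.00481. The other Serpina3 genes overlapped between the groups. Serpina3n, an extracellular inhibitor that rises in the acute phase response, averaged 2.67 ± 1.92 FPKM with LIT-927 (SD, n = 4) and 6.30 ± 3.29 FPKM with vehicle (SD, n = 3), a difference of -1.07. Serpina3i averaged 0.199 ± 0.148 FPKM with LIT-927 (SD, n = 4) and 0.515 ± 0.294 FPKM with vehicle (SD, n = 3). Serpina3a was listed at 0 in LIT-927 replicates 1, 2 and 4 and in vehicle replicate 1, and reached 0.401 FPKM in LIT-927 replicate 3 and 0.507 and 0.638 FPKM in vehicle replicates 3 and 4.

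Reads of these copies may have been split between genes. The longest Serpina3f transcript matched Serpina3g at 97.9% identity over 385 bases and Serpina3i at 95.7% over 624 bases, and how reads with several matches were counted is not given in the sources used here. Leukocyte markers were lower alongside Serpina3g: 11 of 12 had a lower mean with LIT-927, 8 of 12 had an unadjusted p under 0.05, none was at 0 in every library, and their summed level was 70.9 to 206 FPKM in LIT-927 libraries and 199 to 586 FPKM in vehicle libraries. Ptprc, the pan-leukocyte marker CD45, was at 0.657, 1.04, 0.456 and 1.11 FPKM in LIT-927 replicates 1 to 4, against 3.23, 1.32 and 2.63 FPKM in vehicle replicates 1, 3 and 4. Their part in the Serpina3 differences was not tested. In bulk tissue, fewer cells of a type and less RNA per cell cannot be told apart.

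**Figure D3:**
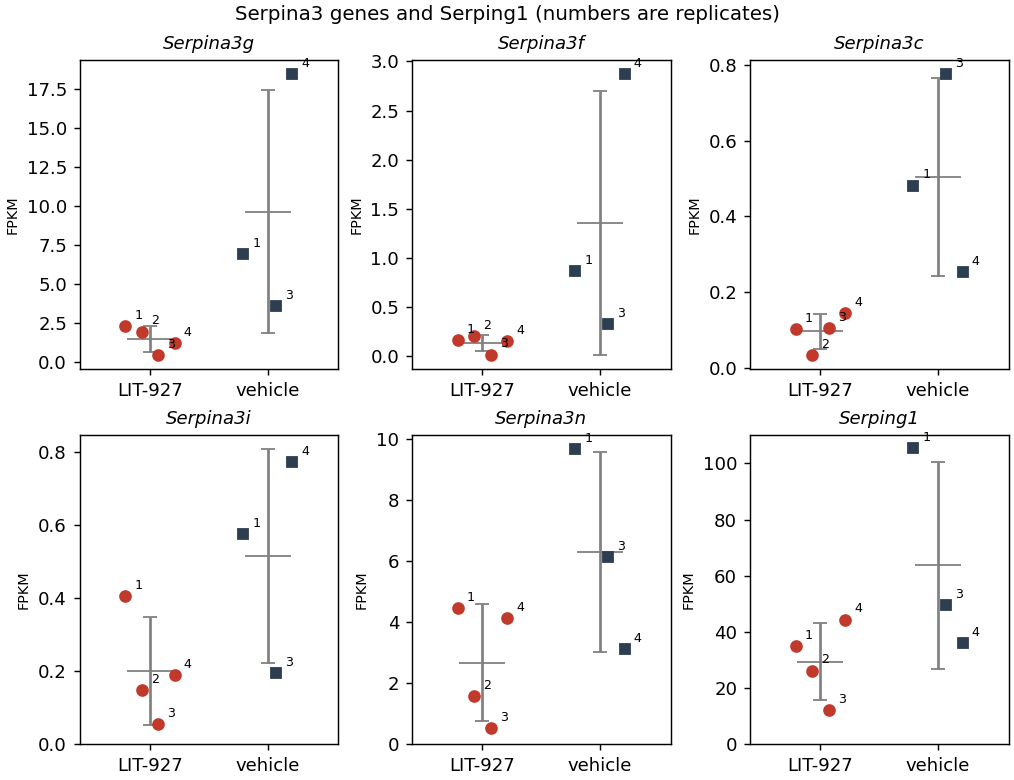
FPKM of 5 Serpina3 genes and Serping1 in each library; points are libraries with their replicate number, and grey marks are the group mean and SD (n = 4 LIT-927, n = 3 vehicle). For Serpina3g, Serpina3f and Serpina3c all LIT-927 points lie below all vehicle points, and for the other 3 genes the groups overlap.

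The promoters of Serpina3g and Serpina3f, which were low in the same libraries, are shown with that of Serpina3i, a close copy of Serpina3f. They are the 250 bases before the start site in RefSeq (GRCm38.p6, the same assembly as mm10), written 5′ to 3′ on the gene's strand. Capitals mark the motifs searched: a STAT element, TTCNNNGAA, which is its own reverse complement, an androgen receptor half-site, AGAACA, and an AP-1 element, TGANTCA, each on both strands. A half-site on the other strand reads TGTTCT, and no marked motif overlaps another. The RefSeq starts of Serpina3g and of Serpina16, shown further on, are not those of a GENCODE transcript, and a second RefSeq start of Serpina3f is not shown.
Serpina3g chr12:104235897-104236146 (plus strand): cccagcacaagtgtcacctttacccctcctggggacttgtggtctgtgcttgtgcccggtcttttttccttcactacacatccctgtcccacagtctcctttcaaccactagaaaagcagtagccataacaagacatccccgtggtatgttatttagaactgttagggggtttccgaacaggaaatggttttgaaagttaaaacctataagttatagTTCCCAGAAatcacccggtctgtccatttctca
Serpina3f chr12:104214294-104214543 (plus strand): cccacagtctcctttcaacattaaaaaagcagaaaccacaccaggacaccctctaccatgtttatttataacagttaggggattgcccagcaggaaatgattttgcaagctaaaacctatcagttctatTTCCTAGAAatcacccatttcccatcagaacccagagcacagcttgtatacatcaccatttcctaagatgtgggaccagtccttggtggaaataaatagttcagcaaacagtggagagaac
Serpina3i chr12:104262872-104263121 (plus strand): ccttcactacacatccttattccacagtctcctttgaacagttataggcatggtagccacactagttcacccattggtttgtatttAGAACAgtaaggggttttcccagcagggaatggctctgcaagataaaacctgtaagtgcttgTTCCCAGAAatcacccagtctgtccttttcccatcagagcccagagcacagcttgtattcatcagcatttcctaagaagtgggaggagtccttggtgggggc
A STAT element lay 33 bases before the start in Serpina3g, 121 in Serpina3f and 102 in Serpina3i, counted to its first base on the gene's strand. Serpina3i also held an androgen receptor half-site, 164 bases before its start. The promoters of Serpina3c, Serpina3n and Serpina3a, which are not shown, each held 0 STAT elements and 1 androgen receptor half-site. Of 32817 RefSeq promoters of that length, 7.01% held a STAT element, 16.1% an androgen receptor half-site and 6.75% an AP-1 element. Among the 43 promoters listed for 38 of the 51 genes, 6 held a STAT element, 10 an androgen receptor half-site and 5 an AP-1 element. The 6 include both listed starts of Serpina3f, whose windows overlap and hold the same STAT element, and its close copies Serpina3g and Serpina3i. A match of letters does not show that a factor binds there.

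Serpins made by connective tissue were highest in vehicle replicate 1. Serping1, the C1 inhibitor, which blocks the first proteases of the classical complement pathway, was at 34.9, 26.2, 12.1 and 44.4 FPKM in LIT-927 replicates 1 to 4, against 105, 49.5 and 36.0 FPKM in vehicle replicates 1, 3 and 4. Its groups overlapped through LIT-927 replicate 4, with a difference of -1.08 (SE 0.50; limma adjusted p = 0.998). Serpinf1, pigment epithelium-derived factor, an inhibitor of vessel growth, was at 4.55, 3.11, 3.04 and 9.37 FPKM in LIT-927 replicates 1 to 4, against 24.2, 14.4 and 4.46 FPKM in vehicle replicates 1, 3 and 4. Its difference was -1.21 (SE 0.56; limma adjusted p = 0.998). Serpinh1, known as HSP47, a chaperone of procollagen, averaged 24.9 ± 13.8 FPKM with LIT-927 (SD, n = 4) and 40.8 ± 26.1 FPKM with vehicle (SD, n = 3). Wfdc1, first described as a growth inhibitor secreted by prostate stroma, averaged 8.02 ± 4.95 FPKM with LIT-927 (SD, n = 4) and 16.9 ± 13.7 FPKM with vehicle (SD, n = 3). LIT-927 replicate 3 had the lowest level of all libraries for each of these 4 genes, and vehicle replicate 1 the highest. The summed level of fibroblast markers had the same extremes, at 156, 135, 72.4 and 242 FPKM in LIT-927 replicates 1 to 4, against 506, 292 and 92.2 FPKM in vehicle replicates 1, 3 and 4, and 10 of 10 had a lower mean with LIT-927. Endothelial markers summed to 9.10 to 63.5 FPKM in LIT-927 libraries and 34.0 to 134 FPKM in vehicle libraries, with 10 of 10 lower. Their part in these differences was not tested. Serpini1, neuroserpin, reached 0.974 FPKM in vehicle replicate 1 and at most 0.338 FPKM elsewhere.

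Serpine2 had the highest mean FPKM of the serpins. It encodes protease nexin-1, which inhibits thrombin and plasminogen activators and is abundant in the seminal vesicle. Serpine2 (chromosome 1, 79794197 to 79861180, minus strand) was at 643, 881, 195 and 466 FPKM in LIT-927 replicates 1 to 4, against 186, 280.4 and 580.3 FPKM in vehicle replicates 1, 3 and 4. Both groups held libraries with high and with low levels, and the difference was 0.61 (SE 0.61; 95% interval -0.80 to 2.02; limma adjusted p = 0.998). Plau, urokinase, a protease that it inhibits, was at 669, 863, 24.7 and 414 FPKM in LIT-927 replicates 1 to 4, against 204, 40.7 and 191 FPKM in vehicle replicates 1, 3 and 4. LIT-927 replicates 1 and 2 were the highest for both genes, while vehicle replicate 4 was the third highest for Serpine2 and the fifth for Plau. Serpina5, the protein C inhibitor, which mice express mainly in the male tract and need for male fertility, was at 0, 0.0135, 0 and 0.504 FPKM in LIT-927 replicates 1 to 4, against 0.117, 2.27 and 1.91 FPKM in vehicle replicates 1, 3 and 4. It had a lower mean with LIT-927 (difference -0.98, SE 0.37, limma adjusted p = 0.998), yet LIT-927 replicate 4 was above vehicle replicate 1.

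Among the intracellular serpins, Serpinb6a, whose human counterpart inhibits cathepsin G, was the most abundant, at 36.7, 24.5, 59.7 and 51.6 FPKM in LIT-927 replicates 1 to 4, against 78.4, 78.8 and 47.0 FPKM in vehicle replicates 1, 3 and 4. Its exons overlap those of Nqo2 and Ripk1, so some reads could belong to either gene if strand was not used in counting. The difference was -0.68 (SE 0.35; limma adjusted p = 0.998). Serpinb1a, an inhibitor of the neutrophil proteases elastase, cathepsin G and proteinase 3, was at 6.16, 0.504, 0.783 and 13.3 FPKM in LIT-927 replicates 1 to 4, against 16.3, 8.50 and 2.79 FPKM in vehicle replicates 1, 3 and 4. Each group had both high and low libraries. Serpinb9, which protects cells from granzyme B, was at 14.8, 22.5, 2.87 and 9.77 FPKM in LIT-927 replicates 1 to 4, against 6.87, 3.47 and 5.12 FPKM in vehicle replicates 1, 3 and 4. Its highest libraries were LIT-927 replicates 2 and 1, but LIT-927 replicate 3 was the lowest of all, and the difference of 0.90 (SE 0.58) did not pass (limma adjusted p = 0.998). Serpinb6b had the same libraries at its extremes, at 8.27, 12.2, 0.167 and 4.66 FPKM in LIT-927 replicates 1 to 4, against 2.08, 0.572 and 1.76 FPKM in vehicle replicates 1, 3 and 4. Its transcript matches that of Serpinb6a at 90.2% over 447 bases. Serpinb5, maspin, a serpin of basal epithelium, averaged 0.983 ± 0.220 FPKM with LIT-927 (SD, n = 4) and 1.94 ± 1.02 FPKM with vehicle (SD, n = 3), with 10 of 10 basal epithelial markers also lower in mean. The part of basal cells was not tested. Serpinb8, whose human counterpart inhibits furin, was at 0.280 ± 0.204 FPKM with LIT-927 (SD, n = 4) and 0.710 ± 0.234 FPKM with vehicle (SD, n = 3), with overlapping groups. Serpinb10, Serpinb1b and Serpinb6c reached at most 0.0670, 0.125 and 0.400 FPKM in any library.

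The Spink genes held the highest levels and the widest spread. Spink1, the secretory trypsin inhibitor, which in the mouse male tract is secreted into seminal plasma and binds sperm, was at 13.8, 1486, 50277 and 145 FPKM in LIT-927 replicates 1 to 4, against 127, 14644 and 7049 FPKM in vehicle replicates 1, 3 and 4. Its highest level was 3649 times its lowest, both of them in LIT-927 libraries. Spinkl, a relative of Spink1, was at 314, 55.9, 10741 and 154 FPKM in LIT-927 replicates 1 to 4, against 48.6, 5190.0 and 11703 FPKM in vehicle replicates 1, 3 and 4. Spink11 was at 16.8, 7.92, 86.5 and 10.1 FPKM in LIT-927 replicates 1 to 4, against 6.08, 60.9 and 135 FPKM in vehicle replicates 1, 3 and 4. These 3 genes shared their 3 highest libraries, LIT-927 replicate 3 and vehicle replicates 3 and 4, so neither group was uniformly high or low. Of the 9 measured seminal vesicle markers, 6 (Svs1, Svs3a, Svs3b, Svs4, Svs5 and Svs6) were highest in the same 3 libraries, while Svs2, Pate4 and Pax2 were highest in LIT-927 replicates 1 and 2. The part of seminal vesicle tissue in the Spink levels was not tested. Svs3a, for example, was at 65.8, 28.6, 7255 and 121 FPKM in LIT-927 replicates 1 to 4, against 44.9, 6934 and 14581 FPKM in vehicle replicates 1, 3 and 4. The differences were -1.90 for Spink1 (SE 2.82), -1.80 for Spinkl (SE 2.31) and -0.98 for Spink11 (SE 1.13), all with a limma adjusted p of 0.998. That of Spink1 became -0.09 when LIT-927 replicate 1 was left out, and -4.0 when LIT-927 replicate 3 was.

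Spink5, known as LEKTI, an inhibitor of kallikreins in stratified epithelium, was at 0.0178, 11.4, 562 and 0.700 FPKM in LIT-927 replicates 1 to 4, against 0.805, 281 and 0.494 FPKM in vehicle replicates 1, 3 and 4. It was high in the libraries with high uroplakin transcripts, LIT-927 replicate 3 and vehicle replicate 3, and low in vehicle replicate 4, unlike Spinkl. Its difference of 0.20 (SE 2.59) turned to -1.71 without LIT-927 replicate 3. Summed markers of keratinising epithelium, of which Sprr1a made up most in LIT-927 replicate 3 and vehicle replicate 3, were at 2.45, 2.14, 115 and 3.64 FPKM in LIT-927 replicates 1 to 4, against 2.94, 105 and 3.85 FPKM in vehicle replicates 1, 3 and 4. Those of urothelium were at 107, 87.4, 349 and 108 FPKM in LIT-927 replicates 1 to 4, against 119, 312 and 66.0 FPKM in vehicle replicates 1, 3 and 4, with the same pair of libraries highest in each. Of the keratinising markers, 2 of 6 (Sprr1a and Ivl) were high in both of these libraries, and Krt1 and Lor were low in LIT-927 replicate 3. For urothelium, 7 of 9 markers were above the other 5 libraries in both, Gata3 was below them in both, and Upk1b was neither. Upk1a alone gave 253 of the 349 FPKM in LIT-927 replicate 3 and 172 of the 312 FPKM in vehicle replicate 3. In all, 4 of 6 and 8 of 9 had a lower mean with LIT-927. Of the 14 prostate luminal markers, 7 were also above the other 5 libraries in both LIT-927 replicate 3 and vehicle replicate 3, and 0 were below them in both. Among them Sbp was at 114916 FPKM in LIT-927 replicate 3, 53139 FPKM in vehicle replicate 3 and at most 5316 FPKM elsewhere. Other luminal markers differed from Sbp. Tgm4 was lowest of all libraries in LIT-927 replicate 3. Pbsn was at 233 FPKM there, above only LIT-927 replicate 2, against 11311 FPKM in vehicle replicate 1. Neither gene was at an extreme in vehicle replicate 3. The part of any of these markers in the Spink5 levels was not tested. Of the 8 Spink genes in the files, 6 lie on chromosome 18. Spink1, Spink5, Spinkl and Spink11 lie within 1 stretch of chromosome 18, from 43728082 to 44196177, whereas Spink10 and Spink13 lie near 62548911.

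Another set of inhibitors had the reverse pattern, with their lowest levels in LIT-927 replicate 3 and vehicle replicate 3. These 2 libraries were both below the other 5 for 12 of the 51 genes (23.5%) and for 5.98% of all genes. Both were above the other 5 for 5 of the 51 and for 8.58% of all genes. The 12 were Serpina1f, Serpina16, Serpina9, Serpinb6b, Serpinb9, Spink4, Spink8, Spink10, Wfdc8, Wfdc9, Wfdc10 and Wfdc16, and the 5 were Spink1, Spink5, Wfdc2, Wfdc3 and Serpinb11. Serpina9, Spink4 and Wfdc8 stayed under 1 FPKM in every library. Their values in vehicle replicate 3 stand for 1, 2 and 3 fragments, against 1, 3 and 4 in the lowest of the other 5 libraries. With only genes reaching 1 FPKM, both were below for 9 of 34 inhibitor genes (26.5%) and 5.43% of all genes. The libraries were set apart after their values had been seen, so these counts are descriptions. Spink8 (chromosome 9, 109812280 to 109826633, plus strand) was at 1088, 564, 37.0 and 512 FPKM in LIT-927 replicates 1 to 4, against 488, 90.7 and 165 FPKM in vehicle replicates 1, 3 and 4. Serpina1f, a serpin of the epididymis (chromosome 12, 103688044 to 103695529, minus strand), was at 377, 192, 0.260 and 162 FPKM in LIT-927 replicates 1 to 4, against 205, 1.78 and 40.7 FPKM in vehicle replicates 1, 3 and 4. Its near neighbour Serpina16 (chromosome 12, 103668808 to 103676139, minus strand), whose rat counterpart is an epididymal protein of sperm maturation, was at 11.3, 12.1, 0 and 12.3 FPKM in LIT-927 replicates 1 to 4, against 4.38, 0 and 3.0 FPKM in vehicle replicates 1, 3 and 4. All 3 were lowest in the pair that was also lowest for Akr1b7. Differences were 1.11 for Serpina1f (SE 2.19; -0.57 without vehicle replicate 3), 1.29 for Serpina16 (SE 1.04) and 0.76 for Spink8 (SE 1.15), none past the test (limma adjusted p = 0.998 for each). Leaving out the pair gave 1.30 for Serpina1f, 1.48 for Serpina16 and 1.26 for Spink8, and again no gene passed limma with adjustment, while 945 genes had an unadjusted p under 0.05. Of the 9 measured markers of vas deferens and epididymis, 8 were higher in mean with LIT-927, and their sum was 20245, 10682, 19.9 and 7410.2 FPKM in LIT-927 replicates 1 to 4, against 9646, 102 and 2006 FPKM in vehicle replicates 1, 3 and 4. Their part in these levels was not tested. Spink10, at 0.973 ± 0.687 FPKM with LIT-927 (SD, n = 4) and 0.147 ± 0.137 FPKM with vehicle (SD, n = 3), had the smallest unadjusted p among the 19 inhibitor genes higher with LIT-927, 0.0538. Spink13 was above 0 in LIT-927 replicates 1, 2 and 4 and in no vehicle library, but reached at most 0.143 FPKM.

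**Figure D4:**
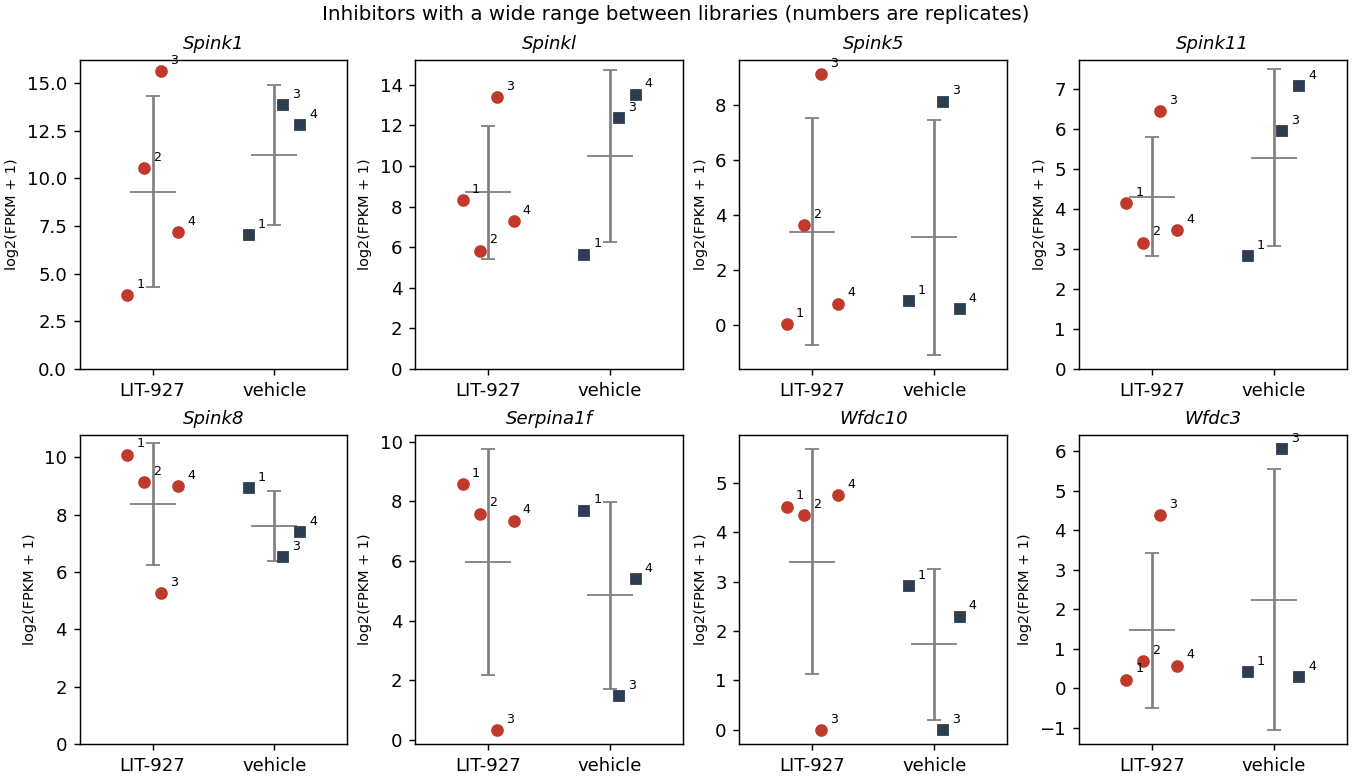
Levels of 8 inhibitor genes with a wide range, in log2(FPKM + 1); points are libraries with their replicate number, and grey marks are the group mean and SD on that scale (n = 4 LIT-927, n = 3 vehicle). LIT-927 replicate 3 and vehicle replicate 3 lie at the top for Spink5 and Wfdc3 and at the bottom for Spink8, Serpina1f and Wfdc10, so each group spans most of the range.

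The promoters of Serpina1f and Serpina16, neighbours that were both lowest in LIT-927 replicate 3 and vehicle replicate 3, are given in the same form as those above.
Serpina1f chr12:103695530-103695779 (minus strand): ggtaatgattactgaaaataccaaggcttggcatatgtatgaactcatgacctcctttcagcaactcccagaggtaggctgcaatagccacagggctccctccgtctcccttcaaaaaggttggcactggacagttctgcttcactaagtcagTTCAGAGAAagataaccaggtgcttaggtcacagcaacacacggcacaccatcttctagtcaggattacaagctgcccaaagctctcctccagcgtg
Serpina16 chr12:103676763-103677012 (minus strand): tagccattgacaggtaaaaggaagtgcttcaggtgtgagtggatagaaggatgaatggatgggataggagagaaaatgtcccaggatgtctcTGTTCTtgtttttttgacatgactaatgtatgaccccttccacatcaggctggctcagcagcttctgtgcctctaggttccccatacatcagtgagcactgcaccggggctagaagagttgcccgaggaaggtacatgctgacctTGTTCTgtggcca
Serpina1f held a STAT element 97 bases before its start, and Serpina16 held 2 androgen receptor half-sites, the nearer of them 13 bases before its start. These windows hold no motif of those 3 in common.

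Wfdc genes showed different profiles at close range in the genome. On chromosome 2, 10 Wfdc genes were measured. Wfdc12 and Wfdc15b lie on one side of the Svs2 to Svs6 genes, and Wfdc2, Wfdc6a, Wfdc8, Wfdc6b, Wfdc16, Wfdc9, Wfdc10 and Wfdc3 on the other, from 164562413 to 164745931. Wfdc15b, an antimicrobial inhibitor also called SWAM1, was the most abundant Wfdc gene, at 418, 368, 55.9 and 196 FPKM in LIT-927 replicates 1 to 4, against 86.1, 195 and 172 FPKM in vehicle replicates 1, 3 and 4. LIT-927 replicate 3 was lowest and LIT-927 replicates 1 and 2 highest, and the difference was 0.51 (SE 0.70; limma adjusted p = 0.998). Its promoter is shown because no other Wfdc transcript was as abundant, with an androgen receptor half-site 133 bases before the start in capitals.
Wfdc15b chr2:164221664-164221913 (minus strand): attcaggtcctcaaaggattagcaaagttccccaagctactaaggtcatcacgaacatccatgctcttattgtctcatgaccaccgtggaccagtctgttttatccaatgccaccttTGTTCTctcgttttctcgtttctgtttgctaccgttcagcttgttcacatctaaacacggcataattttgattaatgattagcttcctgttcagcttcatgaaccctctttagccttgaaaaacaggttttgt
Wfdc10 was at 21.9, 19.3, 0 and 25.9 FPKM in LIT-927 replicates 1 to 4, against 6.47, 0 and 3.89 FPKM in vehicle replicates 1, 3 and 4. Wfdc9 was at 2.65, 2.90, 0 and 3.84 FPKM in LIT-927 replicates 1 to 4, against 0.563, 0.0350 and 0.773 FPKM in vehicle replicates 1, 3 and 4, and Wfdc16 at 1.70, 2.30, 0 and 2.59 FPKM in LIT-927 replicates 1 to 4, against 0.202, 0 and 0.483 FPKM in vehicle replicates 1, 3 and 4. These 3 neighbours were at or near 0 in LIT-927 replicate 3 and vehicle replicate 3, highest in the other LIT-927 libraries and between those in vehicle replicates 1 and 4. Their differences were 1.67 (SE 1.25), 1.02 (SE 0.53) and 0.97 (SE 0.43) in that order, none of which passed (limma adjusted p = 0.998).

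Wfdc2 and Wfdc3 bound this stretch on either side and had the opposite profile. Wfdc2, known as HE4, a secreted protein of glandular and urogenital epithelium, was at 1.47, 2.72, 8.13 and 2.14 FPKM in LIT-927 replicates 1 to 4, against 1.67, 31.3 and 0.959 FPKM in vehicle replicates 1, 3 and 4. Wfdc3 was at 0.161, 0.615, 19.9 and 0.487 FPKM in LIT-927 replicates 1 to 4, against 0.321, 65.4 and 0.210 FPKM in vehicle replicates 1, 3 and 4. Both were highest in vehicle replicate 3 and second in LIT-927 replicate 3. Their differences of -0.46 and -0.78 (SE 0.97 and 1.6) turned to 0.82 and 1.13 without vehicle replicate 3. Wfdc6a, between Wfdc2 and Eppin, was at 0.543, 0.0945, 0.192 and 0.885 FPKM in LIT-927 replicates 1 to 4, against 2.08, 0.820 and 1.07 FPKM in vehicle replicates 1, 3 and 4. It was lower in mean with LIT-927 (difference -0.70, SE 0.25, limma adjusted p = 0.998), and LIT-927 replicate 4 was above vehicle replicate 3. Its transcript matches that of Wfdc6b at 92.1% over 813 bases, so reads may have been split between them. Eppin, an inhibitor on the sperm surface with both a Wfdc and a Kunitz domain, was at 0.486, 0.568, 0.660 and 2.24 FPKM in LIT-927 replicates 1 to 4, against 3.42, 1.92 and 1.09 FPKM in vehicle replicates 1, 3 and 4. Slpi, the secretory leukocyte protease inhibitor, which has Wfdc domains but another symbol, was at 11.5, 23.2, 0.163 and 11.2 FPKM in LIT-927 replicates 1 to 4, against 47.3, 3.29 and 4.07 FPKM in vehicle replicates 1, 3 and 4. It was highest in vehicle replicate 1 and lowest in LIT-927 replicate 3.

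**Figure D5:**
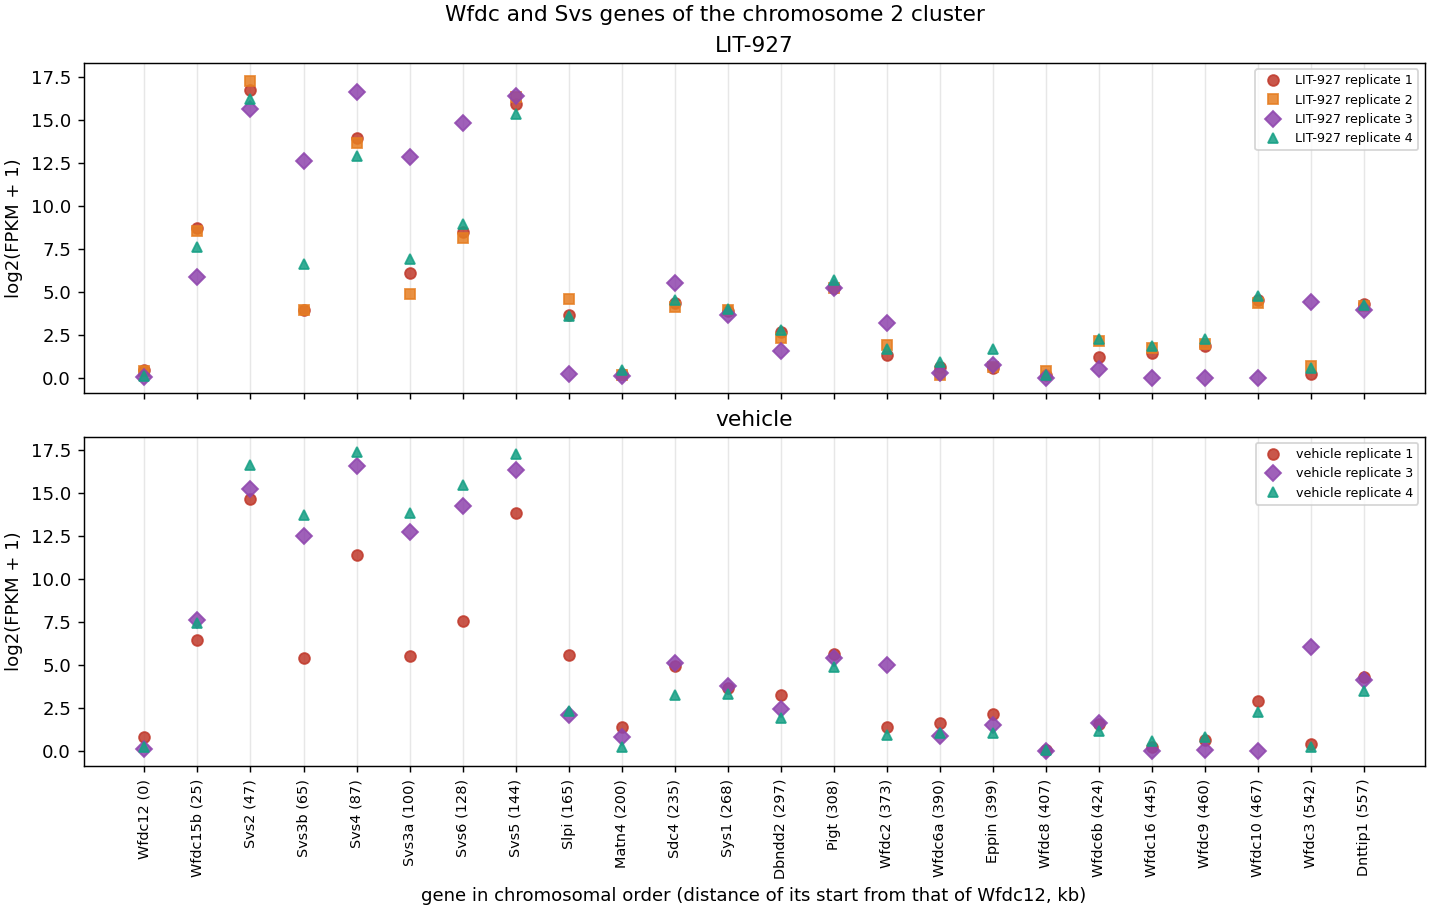
Levels in log2(FPKM + 1) of the measured genes of the chromosome 2 Wfdc and Svs region in chromosomal order, with LIT-927 libraries above and vehicle libraries below; symbols are libraries and numbers give the distance from the start of Wfdc12 in kb. Svs genes and Wfdc15b lie high, and from Wfdc16 to Wfdc3 the order of LIT-927 replicate 3 and vehicle replicate 3 against the other libraries reverses.

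Off that cluster, Wfdc17, a Wfdc protein made by activated macrophages, was at 6.53, 6.59, 1.59 and 6.12 FPKM in LIT-927 replicates 1 to 4, against 14.1, 3.21 and 2.48 FPKM in vehicle replicates 1, 3 and 4. Vehicle replicate 1 was above all LIT-927 libraries and LIT-927 replicate 3 below all vehicle libraries, with a difference of -0.09 (SE 0.61) that became 0.57 when vehicle replicate 1 was left out. Wfdc18, beside it on chromosome 11, stayed under 1 FPKM except in vehicle replicate 3, at 1.57 FPKM. Among serpins that the liver releases into blood, Serpinc1 (antithrombin), Serpind1 (heparin cofactor II) and Serpinf2 (antiplasmin) reached at most 0.114, 0.108 and 0.0419 FPKM in any library. Serpina1b, one of several alpha-1 antitrypsin copies, was at 0.0219 to 1.09 FPKM in LIT-927 libraries and 0.539 to 1.46 FPKM in vehicle libraries, and its transcript matches Serpina1a at 99.0% over 293 bases. Hepatocyte markers, of which 5 of 10 were measured, were under 1 FPKM in every library.

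Proteases were read from lists drawn up with earlier results of these data known. Whether the inhibitors described here act on each listed protease was not tested. The lists also hold genes that are not proteases, such as receptors, collagens and other inhibitors. By limma 0 listed genes were called. The counts of lower means below stand beside 44.5% of all genes. Genes of complement and contact activation, which include the targets of Serping1, had a lower mean with LIT-927 in 8 of 10, of which 3 were C1qa, C1qb and C1qc, recognition subunits and not proteases, with a median difference of -1.02, against 0.02 over all genes. C1s1, the C1s protease, was at 5.54, 4.32, 1.69 and 8.75 FPKM in LIT-927 replicates 1 to 4, against 21.9, 9.74 and 9.52 FPKM in vehicle replicates 1, 3 and 4, with every LIT-927 library below every vehicle library. Of 10 listed granule proteases 6 were measured, those of mast cells (Cma1, Mcpt4, Tpsb2 and Cpa3) and the granzymes Gzma and Gzmb but none of neutrophils. Of these, 6 of 6 were lower in mean (median -0.66). Cathepsins, caspases and granzymes were lower in 7 of 11 (median -0.32), with Gzma and Gzmb counted in both lists. Casp1, the inflammasome caspase, was at 0.566, 0.263, 0.103 and 0.474 FPKM in LIT-927 replicates 1 to 4, against 1.33, 0.586 and 0.880 FPKM in vehicle replicates 1, 3 and 4, again without overlap. Collagens and their folding partners, the setting of Serpinh1, were lower in 15 of 17 (median -0.52), and Col1a1 averaged 11.1 ± 7.26 FPKM with LIT-927 (SD, n = 4) and 23.3 ± 16.2 FPKM with vehicle (SD, n = 3). Plat, tissue plasminogen activator, averaged 1.18 ± 0.759 FPKM with LIT-927 (SD, n = 4) and 2.69 ± 1.72 FPKM with vehicle (SD, n = 3). Genes of plasminogen activation were lower in 11 of 15 (median -0.21), and tissue kallikreins in 4 of 6, of which 4 stayed under 1 FPKM throughout. Klk8, neuropsin, was at 0.656, 0.125, 0.191 and 0.527 FPKM in LIT-927 replicates 1 to 4, against 1.91, 1.51 and 0.666 FPKM in vehicle replicates 1, 3 and 4, with every LIT-927 library below every vehicle library. Klk1b27, a glandular kallikrein, was at 0.929, 1.24, 0 and 1.19 FPKM in LIT-927 replicates 1 to 4, against 0.10, 0 and 0.159 FPKM in vehicle replicates 1, 3 and 4, a difference of 0.69 (SE 0.27; limma adjusted p = 0.998). Epithelial membrane proteases were higher in mean in 8 of 12 (median 0.13), and of all 16019 genes 8888 were higher. Prss22, an epithelial tryptase, was at 2.04, 3.38, 3.65 and 1.63 FPKM in LIT-927 replicates 1 to 4, against 0.740, 1.36 and 0.230 FPKM in vehicle replicates 1, 3 and 4, and all LIT-927 libraries were above all vehicle libraries. Its difference was 1.06 (SE 0.31; limma adjusted p = 0.998). St14, matriptase, also showed no overlap, at 35.0 ± 2.22 FPKM with LIT-927 (SD, n = 4) and 26.1 ± 8.11 FPKM with vehicle (SD, n = 3). Of 20 measured inhibitors of other families and symbols, 14 were lower in mean (median -0.09). Timp1, an inhibitor of matrix metalloproteases, was at 5.25, 0.622, 17.6 and 2.33 FPKM in LIT-927 replicates 1 to 4, against 3.15, 18.8 and 104 FPKM in vehicle replicates 1, 3 and 4, with vehicle replicate 4 far above the rest.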

How the data were processed

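Per the labels' protocols, total RNA was extracted with TRIzol and libraries were made with a VAHTS Universal kit. Per the submitters' processing notes, fastp, HISAT2, HTSeq and mm10 were used. The sources used here give no versions, annotation, strand setting or gene filter. The authors deposited FPKM; the unit was read from the values, which rise in gene-specific steps. Whole fragments, the smallest whole numbers within 0.01 of each value divided by its step, were recovered for all 16019 genes and served for depth and 1 alternative. Positions came from GENCODE M21 (mm10), which matched 15571 symbols, and promoters from RefSeq (GRCm38.p6).

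The test was limma 3.58.1 (R 4.3.3) with trend, on log2(FPKM + 1) of 7 libraries, with no covariate, no filter and Benjamini-Hochberg adjustment over 16019 genes. Differences on this scale understate changes of low genes. Exact permutation tests used 35 divisions of the libraries. Transcripts were compared with blastn (at least 90% identity over 150 bases). The code was tested on simulated data. Tables were made with Python 3.11.15 and pandas 2.3.3.

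The inhibitor genes, lists and tests were chosen with earlier results of these data known. Named were the 12 serpins, 5 Spink and 6 Wfdc genes with the highest mean FPKM, the 6 smallest p in each direction, non-overlapping genes reaching 1 FPKM and the 8 largest ranges; other inhibitor genes and list genes in the text were chosen after their values were seen, except Slpi, Plau, Plat, Col1a1, Eppin and the 3 smallest p per list. Tried as alternatives were 0.1 as pseudocount, a filter at 1 FPKM in 3 libraries, 2 scalings, voom, a replicate block and leaving out libraries. The values of 1 inhibitor gene are counted in the totals but not reported here.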

Additional observations from a re-analysis of the deposited data

Results flagged for a closer look

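Among the 32 named inhibitor genes, 8 had 1 LIT-927 library far from the other 3; its gap to the nearest of them, as a share of the group's range, was above Dixon's 95% critical value. Chance flags about 1 in 20 groups, but that rate does not hold for Spink1, Spinkl, Spink5, Spink11 and Wfdc3, which were among the genes with the widest range, one of the rules for naming. The values compared were FPKM, not log values, where gaps at high levels count for less. The vehicle group of 3 was not tested this way. In 7 of the 8 genes the library was LIT-927 replicate 3. It was far above the others for Spink1 (50277 FPKM, next 1486), Spinkl (10741 FPKM, next 314), Spink5 (562 FPKM, next 11.4), Spink11 (86.5 FPKM, next 16.8) and Wfdc3 (19.9 FPKM, next 0.615). It was far below them for Serpina16 (listed at 0, next 11.3 FPKM) and Wfdc17 (1.59 FPKM, next 6.12). For Serpina5 the library was LIT-927 replicate 4 (0.504 FPKM, next 0.0135). The same genes ranged widely among the 3 vehicle libraries, as given above.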

How the results depend on the processing

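In all 14 other settings limma called 0 of the genes tested, so no inhibitor or listed protease gene was called in any. The smallest adjusted p of any gene was 0.0699 (upper-quartile scaling). The number of inhibitor genes lower in mean with LIT-927 was 32 of 51, and 30 to 35 without any one library. It was 33 under either scaling. It was 14 among those left by a minimum of 1 FPKM in 3 libraries, where 11151 genes were tested, so this 14 is not out of 51. Among the 34 inhibitor genes reaching 1 FPKM in any library, 20 were lower (58.8%), against 39.0% of all genes reaching it. The median difference of the inhibitor genes was -0.16, and -0.70 with voom on fragments, which adds a smaller prior value than 1 FPKM for low genes. It was -0.23 to -0.09 without any one library (-0.09 without vehicle replicate 1), and -0.05 without both libraries high in uroplakin transcripts. Of the 32 named inhibitor genes, 27 kept their direction in every setting. Spink5 (0.20) was -0.10 with a pseudocount of 0.1, -0.65 with voom and -1.71 to 2.67 without any one library. Without both libraries high in uroplakin transcripts, Wfdc17 was 0.031, Wfdc2 0.42 and Wfdc3 0.15. Without any one library Serpina1f ranged from -0.57 to 2.99, Wfdc17 from -0.49 to 0.57, Wfdc2 from -1.21 to 0.82, Wfdc3 from -1.76 to 1.13 and the listed gene Slpi from -0.95 to 0.80; the cause was not tested. Same-numbered libraries correlated in their deviations from group means at 0.565, 0.70 and -0.238 for replicates 1, 3 and 4. Vehicle replicate 1 and LIT-927 replicate 4, which differ in number, correlated at 0.642. Whether the numbers pair the samples cannot be told from these values. With the replicate block 0 genes were called and 33 of 51 inhibitor genes were lower (median -0.22). Genes under about 0.1 FPKM rest on a few fragments.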
